A study of Mus musculus with 16 samples.

Results

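The cytosolic ribosomal protein genes were taken from the count table as the rows whose symbol is Rpl or Rps followed by a number and at most a short suffix, together with Rpsa, Rplp0, Rplp1, Rplp2 and Fau. Pseudogenes named with -ps and the Rps6k kinases were left out. This gave 89 of the 37003 genes in the table. Of these, 78 encode proteins of the standard ribosome, 32 of the small (40S) and 46 of the large (60S) subunit, and are called the core genes. The other 11 are paralogs and gene models named after a member, and are called the other members: Rpl3l, Rpl6l, Rpl7l1, Rpl10l, Rpl22l1, Rpl32l, Rpl39l, Rps3a2, Rps3a3, Rps4l and Rps27l. GENCODE M21 annotates 5 of these, Rpl6l, Rpl32l, Rps3a2, Rps3a3 and Rps4l, as processed pseudogenes, which the naming rule keeps. All 89 were among the 31085 genes with enough counts to be tested.

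The libraries were made from brain endothelial cells (bECs) of adult mice, sorted for CD31 and against CD45 and the dead-cell dye DAPI 72 hours after surgery. Surgery was either a sham operation or a 30-minute middle cerebral artery occlusion followed by reperfusion (MCAo), a model of ischemic stroke. Both Yap and Taz (Wwtr1) were floxed in YT-iKO mice, which also carried the transgene Pdgfb-iCreER-eGFP, a tamoxifen-inducible Cre recombinase under the Pdgfb promoter, and control littermates (CTRL) carried the floxed alleles without the transgene. Both genotypes received tamoxifen before surgery, so CTRL libraries carry the drug but neither Cre nor eGFP. Each combination of genotype and surgery had 4 libraries, and each library was a pool of several mice, male and female mice having been used. The pool is therefore the unit of replication, and p values measure the spread between pools.

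Each cytosolic ribosome holds one copy of nearly every ribosomal protein, so cells make these proteins in matched amounts and the mRNAs are among the most abundant of a cell. The 40S subunit reads the mRNA and the 60S subunit joins amino acids, while a stalk of acidic P proteins on the 60S subunit recruits the elongation factors. Many of these mRNAs begin with a tract of pyrimidines, the 5′ terminal oligopyrimidine (TOP) tract, through which the mTORC1 kinase and the protein LARP1 govern their translation and stability. Brain endothelial cells form the blood-brain barrier and line the vessels that are reperfused after a stroke.

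Because the core genes moved together, the sequence around their start sites is shown for members described below. RefSeq promoter sequences (GRCm38.p6) were at hand for 65 members, of which 58 were core genes. A run of at least 8 consecutive C or T letters on the gene's own strand, in the window from 20 bases before to 40 bases after the annotated start, was the only motif searched. Such a run was present in 41 of the 58 core genes (70.7%) and in 24.7% of all 27025 genes with a sequence. The capitals mark the run in 30 bases of Rps6 (chr4:86857349-86857378, minus strand), Rps7 (chr12:28635911-28635940, minus), Rpl5 (chr5:107900497-107900526, plus), Rpl11 (chr4:136053358-136053387, minus), Rplp2 (chr7:141447636-141447665, plus), Rpl26 (chr11:68901579-68901608, plus), Fau (chr19:6057937-6057966, plus) and Rpl13a (chr7:45128722-45128751, minus).
Rps6: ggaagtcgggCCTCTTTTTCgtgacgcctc
Rps7: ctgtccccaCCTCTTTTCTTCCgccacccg
Rpl5: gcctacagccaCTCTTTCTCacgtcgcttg
Rpl11: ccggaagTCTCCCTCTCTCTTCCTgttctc
Rplp2: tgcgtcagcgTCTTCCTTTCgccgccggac
Rpl26: gcgtgtagTTCTCTTTCCTTTTgcggccat
Fau: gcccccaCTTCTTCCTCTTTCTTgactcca
Rpl13a: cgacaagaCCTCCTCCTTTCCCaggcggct
The run starts 1 base before the annotated start in Rps6, 3 before it in Fau and 5 before it in Rplp2. It starts 2 bases after the annotated start in Rpl13a, 13 in Rpl11, 21 in Rpl26 and 22 in Rps7. In Rpl5 the run of 9 letters starts 20 bases before the annotated start and ends before it. Rpl13a, whose level and response below are near the low end of the core genes, holds a run as Rps6 and Rps7 do. A run is a description of the letters and no evidence that the mRNA is controlled as a TOP mRNA.

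Library totals ran from 11418262 to 23074547 counts (median 16441012). The endothelial markers summed to 11565 to 26158 CPM (the count of a gene relative to the scaled library total) per library, against 506 to 1496 CPM for 9 pericyte and smooth muscle markers, 62.1 to 113 CPM for 6 astrocyte markers and at most 31.0 CPM for 8 microglia and macrophage markers. Yap1 averaged 112 ± 0.51 CPM in CTRL sham and 49.3 ± 9.7 CPM in YT-iKO sham, and 106 ± 27 and 47.2 ± 12 CPM after MCAo (mean ± SD, n = 4). It was lower in YT-iKO after sham by edgeR's quasi-likelihood test (log2 fold change −1.18, adjusted p = 0.0371) and after MCAo (−1.17, adjusted p = 0.0478). Wwtr1 was lower by 1.88 on the log2 scale in both (edgeR, adjusted p = 0.00381 and 0.00356) and stayed below the threshold without any 1 library. Leaving out replicate 2 of CTRL sham or replicate 4 of YT-iKO sham ended the Yap1 call in both comparisons, and leaving out CTRL MCAo replicate 4 or YT-iKO MCAo replicate 3 ended that after MCAo (edgeR, adjusted p from 0.115 to 0.473). YT-iKO sham replicate 3 and YT-iKO MCAo replicate 2 had the most counts on olfactory and taste receptor genes, 0.0309% and 0.0326%, against 0.00246% to 0.0271% in the others. The edgeR scaling factors from all genes (TMM) ran from 0.743 to 1.40, whereas factors from genes averaging 10 CPM or more ran from 0.938 to 1.04. The latter are called the abundant-gene scale here and core medians are given on both, since the choice moved the median log2 fold change of all genes from 0.11 to 0.30 (genotype after sham) and from 0.07 to 0.21 (MCAo in CTRL).

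Core genes were expressed at high and mostly similar levels. Over the 16 libraries their median was 113 CPM per kilobase of transcript, at the 98.8th percentile of the 30983 genes tested that had a length. In CTRL sham the median was 98.2 CPM per kilobase, 110 for the 40S and 86.9 for the 60S genes, and 70 of the 78 lay between 40 and 310. The highest levels were those of Rplp1, a P protein of the stalk, at 304 ± 74 CPM per kilobase, and Rpl26 at 264 ± 21 (SD, n = 4), and the SDs of these neighbours overlap. The lowest were Rpl24 at 0.77 ± 0.28, Rpl13a at 8.56 ± 1.9 and Rps15a at 8.88 ± 0.68. Rpl24 had only 3 to 15 counts per library. It shares 484 exonic bases on the same strand with the gene model Gm28037, and Rpl13a shares 621 with Gm45713, and neither model is a row of the table. The Rps15a value rests on a transcript of 5179 bases. Levels depend on the length used: per kilobase of all annotated exons the core median was 41.2, and 6 of the 10 highest and 7 of the 10 lowest genes were the same.

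**Figure D1:**
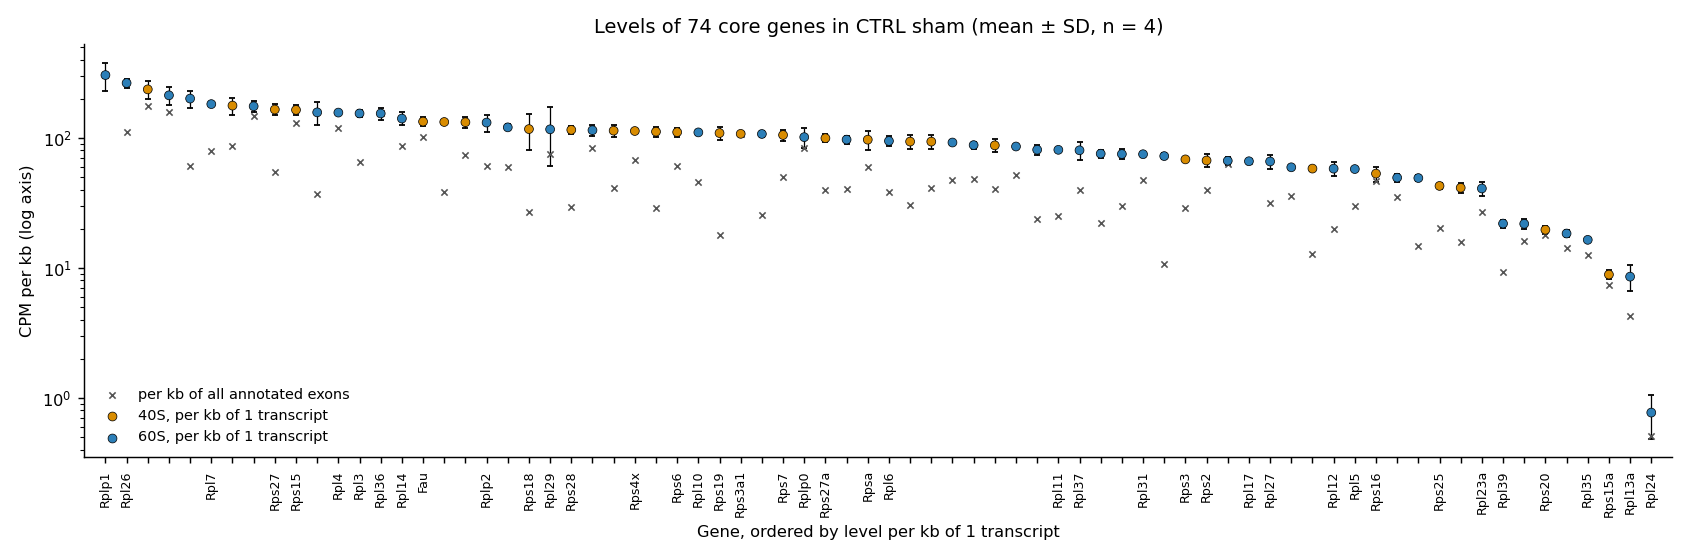
Level of 74 of the 78 core genes in CTRL sham, in CPM per kilobase on a log axis (mean ± SD, n = 4 libraries), with 40S genes in orange and 60S genes in blue. Crosses give the level per kilobase of all annotated exons. Rplp1 is the highest at 304, and Rpl24 stands alone at 0.77.

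The first question was how large a part of the counts fell on these genes in each group. The 89 genes took 0.623%, 0.692%, 0.693% and 0.742% of all counts in CTRL sham and 1.04%, 0.877%, 0.927% and 0.989% in CTRL MCAo. Every CTRL MCAo library was above every CTRL sham library, and the mean was 1.40 times as high (0.959 ± 0.073% against 0.687 ± 0.049%). In YT-iKO the shares were 0.684%, 0.535%, 0.799% and 0.850% after sham and 1.03%, 0.784%, 0.734% and 0.880% after MCAo. The YT-iKO groups overlapped, YT-iKO sham replicate 2 being the lowest of all 16 libraries, and the means were 0.717 ± 0.140% and 0.856 ± 0.129%. Without YT-iKO sham replicate 2 the difference of these means fell from 0.139 to 0.0786 percentage points, and without the 2 libraries rich in receptor counts it was 0.191.

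Both subunits took part. The 40S share went from 0.272% to 0.378% in CTRL and from 0.288% to 0.340% in YT-iKO, and the 60S share from 0.408% to 0.574% and from 0.421% to 0.508%. The ratio of 60S to 40S counts stayed between 1.42 and 1.53 in all libraries. Within CTRL it averaged 1.5 ± 0.015 after sham and 1.52 ± 0.024 after MCAo, within YT-iKO 1.46 ± 0.032 and 1.5 ± 0.0078, and YT-iKO sham did not overlap with CTRL sham or YT-iKO MCAo. The margin was very narrow. The highest YT-iKO sham ratio was 1.4865, and the lowest was 1.4874 in CTRL sham and 1.4871 in YT-iKO MCAo. The 77 mitochondrial ribosomal protein genes, whose products make a separate ribosome, took 0.0909% to 0.108% of counts, with means of 0.0957% and 0.0935% in CTRL sham and MCAo and of 0.103% and 0.0983% in YT-iKO. Only YT-iKO sham and CTRL sham did not overlap in this share, among the comparisons of genotype or of surgery. In bulk libraries, a change in the makeup of the sorted cells and a change per cell cannot be told apart.

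**Figure D2:**
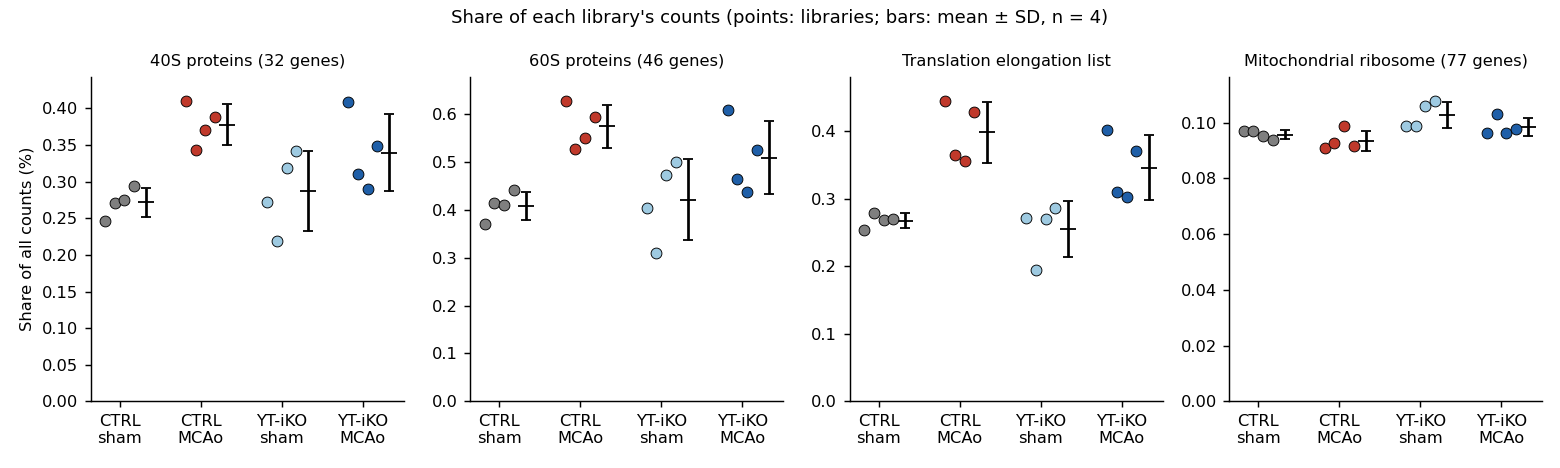
Percent of all counts per library on 40S genes (32), 60S genes (46), 14 translation elongation genes and 77 mitochondrial ribosomal protein genes, by group, as points with mean ± SD (n = 4). The CTRL MCAo points lie above the CTRL sham points for the 40S, 60S and elongation genes, while the mitochondrial values stay near 0.1%.

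Other measures moved along with the MCAo groups. Fibroblast markers summed to 16.9 to 19.1 CPM in CTRL sham and 26.1 to 31.5 CPM in CTRL MCAo, with no overlap and with 1 of the 5 markers under 1 CPM in every library of either group. In YT-iKO they summed to 17.0 to 34.8 and 26.05 to 34.02 CPM, which overlap. Monocyte and neutrophil markers summed to at most 5.47 CPM in CTRL sham and 3.90 to 11.46 CPM in CTRL MCAo, microglia and macrophage markers to 17.8 to 30.2 and 19.4 to 23.01 CPM. Their part in the ribosomal share was not tested. Oligodendrocyte markers (6, none under 1 CPM in every library) summed to 20.9 to 27.5 CPM in CTRL sham and 27.7 to 33.1 CPM in CTRL MCAo, just without overlap, and to 23.4 to 36.5 and 27.0 to 43.0 CPM in YT-iKO, with overlap. Their part was not tested either. Xist, the RNA of the silent X chromosome, was at no more than 23.8 CPM in 9 libraries and at 511 CPM or more in 7, with libraries of both kinds in every group. In CTRL the kind with low Xist took 0.623% to 0.692% after sham (n = 2) and 0.877% to 1.04% after MCAo (n = 3), while the other kind had only 1 MCAo library and gives no comparison. In YT-iKO, with 2 libraries of each kind per group, the groups overlapped in both kinds.

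In CTRL bECs, 76 of the 78 core genes were higher after MCAo than after sham, with a median log2 fold change of 0.48 against 0.07 for all genes tested and −0.11 for the 1851 genes averaging 100 CPM or more. The core median on the abundant-gene scale was 0.55. No single member passed the test: 0 of 89 were called at an adjusted p under 0.1 (edgeR, TMM, Benjamini-Hochberg over all genes) where 0.216% of all genes were. DESeq2 also called 0 of the 82 members to which it gave an adjusted p, against 1.11% of all genes with one. Limma-voom with sample quality weights called 5 members (5.62%) higher and 2 (2.25%) lower, fewer than the 11.3% and 13% of all genes that it called in these directions. At an unadjusted p under 0.05 in edgeR, 18 members (20.2%) were higher against 2.05% of all genes, and none lower. On the abundant-gene scale edgeR called 40 members (44.9%), all higher, against 1.35% of all genes. With only the CTRL libraries in the model 26 of the 85 members tested (30.6%) were called higher against 1.57% of all genes, and without the 2 libraries rich in receptor counts 6 (6.74%) against 0.838%.

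Whether the groups overlapped also depended on the scale. With TMM scaling the 4 CTRL MCAo libraries were all above the 4 CTRL sham libraries in 12 members (13.5%) against 2.24% of all genes, and on the abundant-gene scale in 70 (78.7%) against 4.69%. Without CTRL MCAo replicate 1, whose TMM factor of 0.743 was the lowest, the core median was 0.33. Set against the genes of at least 100 CPM the core median stood at 0.59, and at 0.51 to 0.59 under the alternative tools, scalings and filters.

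The 40 genes that rose on the abundant-gene scale were 12 of the 32 core 40S genes and 28 of the 46 core 60S genes. Among 40S genes these included Rps3, Rps3a1, Rps6, Rps7, Rps15, Rps15a, Rps16, Rps20, Rps25, Rps27 and Rps28. Among 60S genes they included Rpl3, Rpl4 and Rpl10, whose products lie near the catalytic centre or its tRNA path, Rpl5 and Rpl11, which bind 5S rRNA, and Rplp0, the base of the stalk. The median of the 40S and of the 60S genes was nearly equal with TMM scaling (0.48 and 0.49).

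Rpl10 encodes a 60S protein added last, in the cytoplasm. Its abundant-gene scale CPM were 87.5, 83.3, 88.4 and 93.0 in CTRL sham and 190, 141, 128 and 181 in CTRL MCAo. The groups did not overlap, and the log2 fold change was 0.86 ± 0.17 (SE; edgeR, adjusted p = 0.0161) on this scale and 0.82 ± 0.31 with TMM, which was not called. The exact two-sided permutation test gave p = 0.0286, the smallest that 4 against 4 libraries allow, on either scale.

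Rps7 encodes a 40S protein that also binds the p53 regulator Mdm2. Its CPM were 80.7, 99.0, 96.4 and 99.1 in CTRL sham and 185, 159, 162 and 187 in CTRL MCAo on the abundant-gene scale. All CTRL MCAo libraries were far above the sham libraries, by 0.89 ± 0.15 on the log2 scale (edgeR, adjusted p = 0.00608) and by 0.82 ± 0.27 with TMM (edgeR, adjusted p = 0.717). Rps6, the 40S protein phosphorylated by S6 kinase downstream of mTORC1, had 86.3, 83.3, 92.7 and 101 CPM after sham and 166, 138, 139 and 183 CPM after MCAo. It rose by 0.79 ± 0.14 on that scale (edgeR, adjusted p = 0.0084), again without overlap.

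The stalk genes differed among themselves. Rplp0 had 102, 125, 129 and 158 CPM in CTRL sham and 270, 214, 202 and 268 CPM in CTRL MCAo on the abundant-gene scale, with no overlap and a rise of 0.89 ± 0.24 (edgeR, adjusted p = 0.0887). With TMM its groups overlapped and the estimate was 0.84 ± 0.34. Rplp1, which binds Rplp0 as a dimer with Rplp2, had 96.5, 139, 149 and 183 CPM against 172, 149, 190 and 172 CPM. Its groups overlapped, at 0.27 ± 0.25 on the abundant-gene scale and 0.19 ± 0.30 with TMM. Rplp2 lay between these at 0.49 ± 0.18 and Rpl12, at the foot of the stalk, at 0.39 ± 0.17, and neither was called.

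Of the pair that carries 5S rRNA, Rpl5 had 111, 109, 105 and 115 CPM in CTRL sham and 179, 149, 145 and 167 CPM in CTRL MCAo, without overlap (0.54 ± 0.11; edgeR on the abundant-gene scale, adjusted p = 0.0177). Rpl5 shares 953 exonic bases with Fam69a on the opposite strand. Rpl11 rose by 0.52 ± 0.12 (edgeR on that scale, adjusted p = 0.043), and Rpl3, at the catalytic centre, by 0.62 ± 0.13 (edgeR, adjusted p = 0.0228). The remaining members chosen for their role were not called on either scale. These were Rpsa, the laminin receptor precursor (0.57 ± 0.20), Fau (0.52 ± 0.14), which is made as a fusion to a ubiquitin-like protein, Rps19 (0.41 ± 0.14), a gene of Diamond-Blackfan anemia, and Rps27a (0.34 ± 0.12), a fusion to ubiquitin. The groups of all 4 nevertheless did not overlap on the abundant-gene scale.

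**Figure D3:**
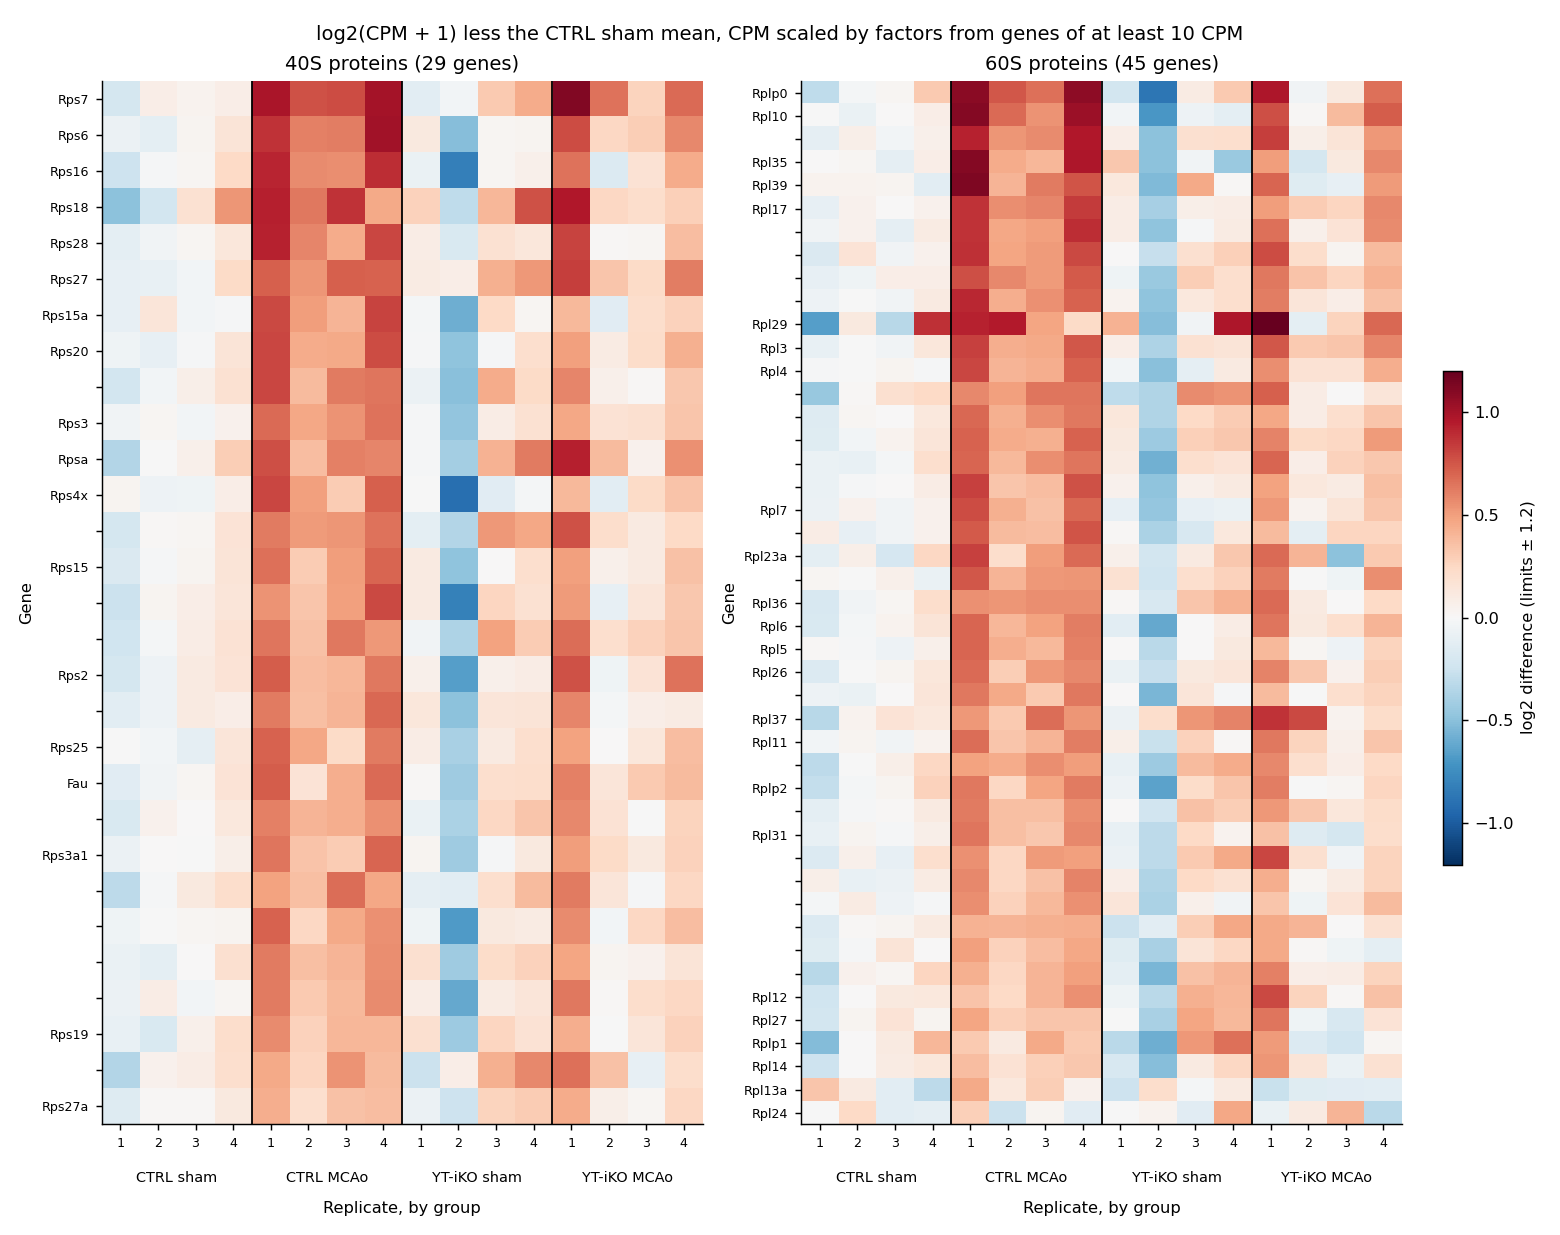
log2(CPM + 1) of 74 of the core genes in each library less its mean in CTRL sham, on the abundant-gene scale, with 40S genes on the left and 60S genes on the right, ordered by the mean of CTRL MCAo, and with the genes described in the text labelled. The CTRL MCAo columns are red in nearly all rows. YT-iKO sham replicate 2 is blue in most rows and YT-iKO MCAo replicate 1 is redder than the other YT-iKO MCAo libraries.

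In YT-iKO bECs, 75 of the 78 core genes were higher after MCAo, with a median log2 fold change of 0.38 against −0.02 for all genes and 0.06 for the genes of at least 100 CPM. The core median on the abundant-gene scale was 0.26. Here too edgeR with TMM and DESeq2 called 0 members, where 0.318% and 1.25% of all genes were called, the latter of those to which DESeq2 gave an adjusted p. Limma-voom called 6 (6.74%), all lower, among them Rps4l, Rpl7l1, Rpl23a and Rpl27, against 8.89% of all genes called lower. With only the YT-iKO libraries in the model 0 of 87 members were called against 0.0624% of all genes, and without the 2 libraries rich in receptor counts 1, Rpl10, was called higher (1.12%) against 1.32%. With limma-voom the core median was −0.18, while the genes of at least 100 CPM stood at −0.34. At an unadjusted p under 0.05 in edgeR 9 members (10.1%) were higher against 2.24% of all genes. On the abundant-gene scale 6 members (6.74%) were called higher against 1.23% of all genes, Rpl3, Rpl4, Rpl7, Rpl10, Rpl17 and Rps6, and 1 (1.12%) lower against 0.489%. All MCAo libraries were above all sham libraries in 0 members with TMM, against 0.785% of all genes, and in 8 (8.99%) on the abundant-gene scale, against 1.87%. Those 8 were Rpl3, Rpl4, Rpl6, Rpl7, Rpl10, Rpl17, Rps6 and the processed pseudogene Rps3a2.

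The estimate rests in part on YT-iKO MCAo replicate 1. Without it the core median was 0.11, and without replicate 3 of that group 0.53. Relative to the genes of at least 100 CPM the core median was 0.32. It ranged from 0.16 to 0.33 under the other tools, scalings and filters and was 0.39 without the 2 libraries rich in receptor counts.

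Rpl10 had 86.2, 54.0, 84.5 and 81.2 CPM in YT-iKO sham and 151, 89.0, 115 and 146 CPM in YT-iKO MCAo on the abundant-gene scale. The groups were just apart, between 86.2 and 89.0, and the rise was 0.72 ± 0.17 (edgeR, adjusted p = 0.0512; exact permutation p = 0.0286). With TMM the estimate was 0.85 ± 0.31 and the groups overlapped. Rps6 had 98.4, 63.3, 91.8 and 92.8 CPM against 156, 108, 112 and 136 CPM, without overlap (0.56 ± 0.14; edgeR, adjusted p = 0.0717). Rpl3 had 205, 150, 221 and 216 CPM against 327, 242, 246 and 292 CPM, also without overlap (0.48 ± 0.13; edgeR, adjusted p = 0.0954).

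Rplp0 had 109, 69.2, 136 and 159 CPM after sham and 251, 124, 138 and 202 CPM after MCAo. These overlap, and the value of 0.60 ± 0.23 was not called (edgeR, adjusted p = 0.477). Rps7 at 0.55 ± 0.15 (edgeR, adjusted p = 0.116), Rpl11 at 0.31 ± 0.12 (edgeR, adjusted p = 0.462) and Rpl5 at 0.21 ± 0.11 (edgeR, adjusted p = 0.871) were not called either. On the same scale Rplp1 was at −0.09 ± 0.25, Rplp2 at 0.24 ± 0.18, Rpl12 at 0.25 ± 0.17, Rpsa at 0.31 ± 0.20, Fau at 0.35 ± 0.14, Rps19 at 0.15 ± 0.14 and Rps27a at 0.13 ± 0.12.

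**Figure D4:**
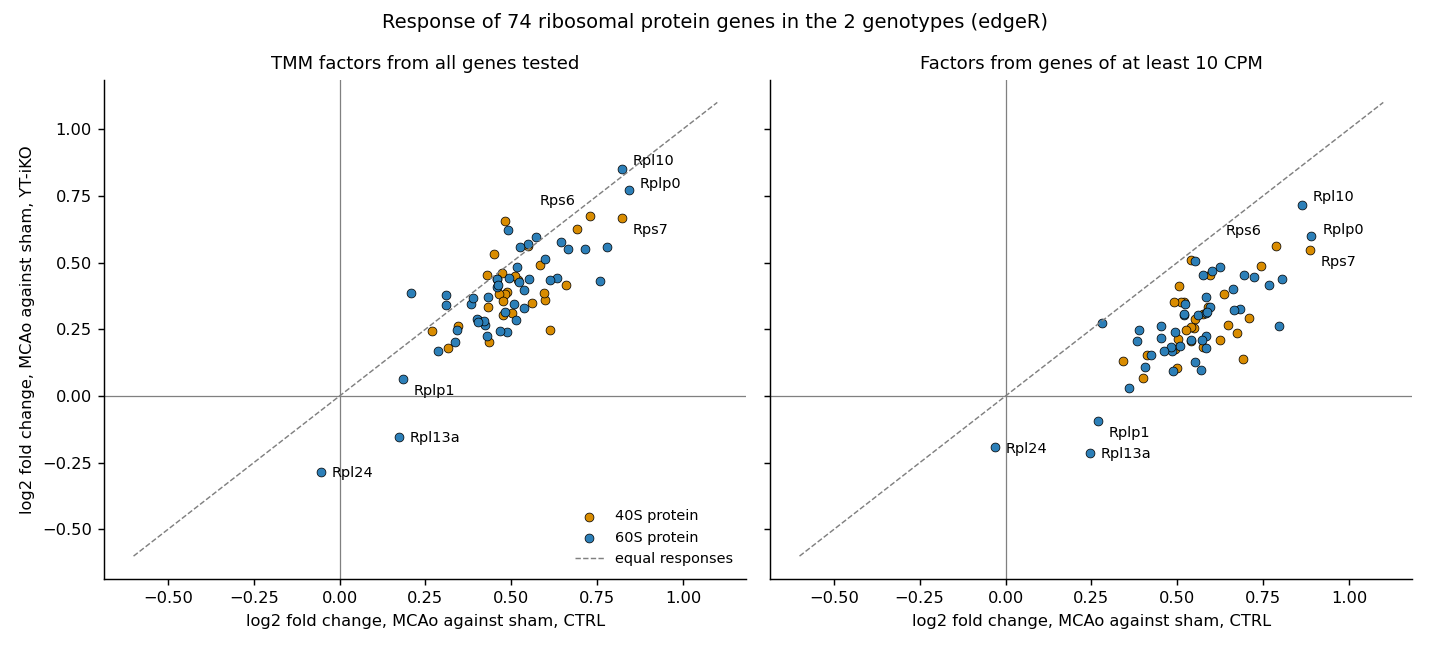
log2 fold change of MCAo against sham for 74 of the core genes in CTRL (x axis) and YT-iKO (y axis), with TMM factors from all genes on the left and factors from genes of at least 10 CPM on the right. The dashed line marks equal responses. On the left the points lie around or just below the line and on the right all lie below it, while Rpl24 is below 0 on both axes.

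The genes kept a similar order in both genotypes. Across the 78 core genes the log2 fold changes in CTRL and in YT-iKO, which share no library, had a Pearson r of 0.833 and a Spearman rho of 0.697, given as a description because the genes share their libraries. Rplp0, Rpl10 and Rps7 headed the order in CTRL and Rpl10, Rplp0 and Rps6 in YT-iKO, while Rpl24 and Rpl13a were near its end in both. Across the same genes, and also as a description, the response had a Pearson r of 0.0443 in CTRL and 0.224 in YT-iKO with the mean CPM of a gene (rho −0.0461 and 0.173). With transcript length r was 0.135 and 0.149 (rho 0.179 and 0.305), and with its number of pseudogene copies it was 0.0587 and 0.186 (rho −0.0905 and 0.0912).

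The design also asks whether the response to MCAo differed between the genotypes. No member was called by the interaction term with edgeR, DESeq2 or limma-voom, and each called 0.0% of all genes. None of the 89 had an unadjusted p under 0.05 in edgeR with TMM, against 0.373% of all genes. The median difference of the core genes (YT-iKO less CTRL) was −0.10 with TMM, where the genes of at least 100 CPM stood at 0.16, and −0.28 on the abundant-gene scale, where those stood at 0.02. With TMM 64 of the 78 core genes had a smaller response in YT-iKO and on the abundant-gene scale all 78 had. An unadjusted p under 0.05 in edgeR was reached there by 4 of the 89 members (4.49%), all lower, against 0.441% of all genes in that direction. Without YT-iKO MCAo replicate 3 the median with TMM was 0.04, and without replicate 1 of that group it was −0.37. The most negative values with TMM were those of Rps18 (−0.36 ± 0.43), Rpl13a (−0.33 ± 0.37) and Rpl39 (−0.33 ± 0.46), a small protein of the exit tunnel. The highest were Rpl14 (0.18 ± 0.37), Rps2 (0.17 ± 0.43) and Rpl6 (0.13 ± 0.38), which were at −0.01, −0.03 and −0.05 on the abundant-gene scale.

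Between genotypes after MCAo, 75 of the 78 core genes were lower in YT-iKO, with a median of −0.23 against 0.03 for all genes and −0.01 for the genes of at least 100 CPM, and with a median of −0.25 on the abundant-gene scale. None of the 89 members was called by edgeR, where 0.0708% of all genes were, nor by DESeq2, against 0.461%, and 1 (1.12%), Rpl32l, had an unadjusted p under 0.05 in edgeR, against 0.756% of all genes in its direction. EdgeR called 0 on the abundant-gene scale as well, where the share of all genes called is not given. On that scale 25 members (28.1%) were lower at an unadjusted p under 0.05 in edgeR against 2.53% of all genes. Limma-voom called 5 (5.62%) lower, Rpl5, Rpl31, Rpl36, Rplp0 and Rps28, against 0.643% of all genes. The groups did not overlap downward in 1 member with TMM, Rpl6l, against 0.415% of all genes, and in 4 on the abundant-gene scale, among them Rpl13a, Rps3 and Rps15a, against 1.73%. The most negative were Rpl35 (−0.49 ± 0.34), Rpl13a (−0.47 ± 0.26) and Rpl39 (−0.45 ± 0.32), and the highest Rpl12, Rpl29 and Rpl37 (0.03, 0.01 and 0.00). Without YT-iKO MCAo replicate 1 the median was −0.50, and without replicate 3 −0.09.

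After sham the core genes had a median of −0.14 in YT-iKO relative to CTRL with TMM and 0.02 on the abundant-gene scale, where all genes stood at 0.11 and 0.30. The TMM median was −0.22 without YT-iKO sham replicate 4 and −0.05 without replicate 2 of that group. Relative to the genes of at least 100 CPM it ranged from −0.04 to 0.19 with 1 library left out. The astrocyte markers summed to 97.3 to 110 CPM in CTRL sham and 62.1 to 82.1 CPM in YT-iKO sham, without overlap. The largest fall was that of Gja1, with means of 62.7 CPM in CTRL sham and 38.2 CPM in YT-iKO sham. Slc1a2 (20.1 and 17.4 CPM) and Slc1a3 (10.8 and 7.02 CPM) were lower too. Gfap (5.13 and 6.12 CPM), Aldh1l1 (2.90 and 4.53 CPM) and Aqp4 (2.07 and 2.18 CPM) were higher, so the markers did not move together. The part of these markers in the ribosomal values was not tested. EdgeR called 0 members against 0.0965% of all genes, DESeq2 called 0 against 0.42% and limma-voom 0 against 0.46%, and 0 had an unadjusted p under 0.05 in edgeR against 2.16% of all genes. The groups did not overlap downward in 1 member with TMM, against 2.22% of all genes, and in 2 on the abundant-gene scale, Rpl7 among them, against 1.59%. Near the extremes with TMM were Rps4x (−0.38 ± 0.29), an X-linked 40S gene, and Rpl10 (−0.36 ± 0.31) on one side and Rpl37 (0.16 ± 0.25) and Rpl24 (0.15 ± 0.62) on the other.

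**Figure D5:**
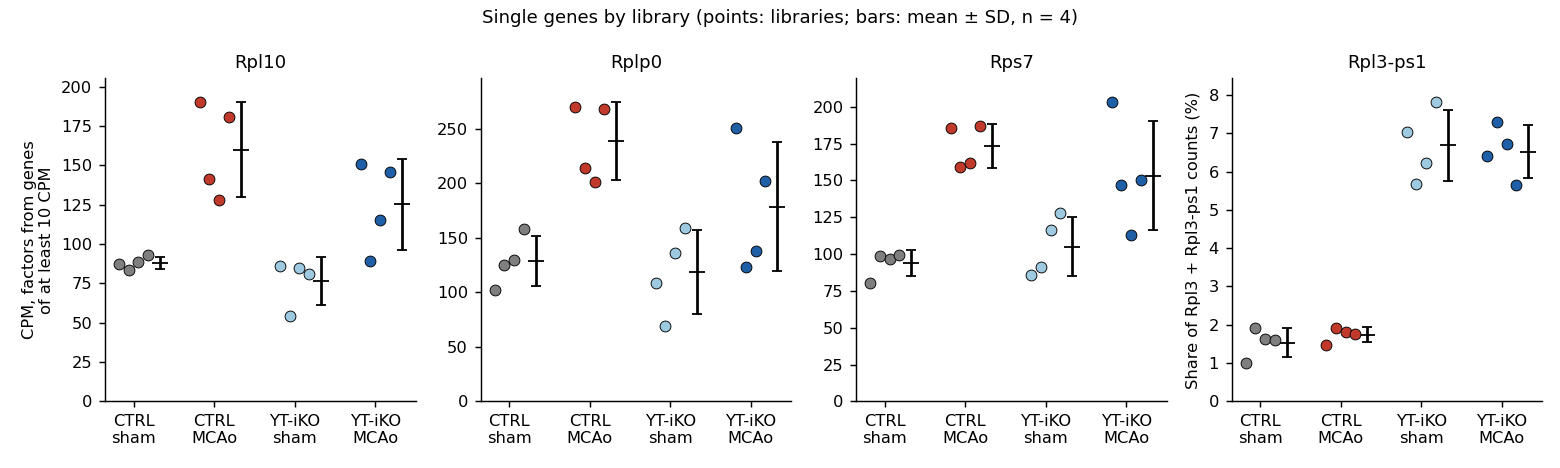
CPM on the abundant-gene scale of Rpl10, Rplp0 and Rps7 and the percent of Rpl3 and Rpl3-ps1 counts that were on Rpl3-ps1, per library, with mean ± SD (n = 4). Rpl10, Rplp0 and Rps7 are higher in CTRL MCAo than in CTRL sham without overlap, and the Rpl3-ps1 percent separates the genotypes.

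Rpl24 and Rpl13a had log2 fold changes near the low end of the core genes in both genotypes. Whether they differ from the other core genes was not tested. Rpl13a, a 60S protein that is released from the ribosome in response to interferon-gamma, was at 0.17 ± 0.26 in CTRL and −0.15 ± 0.26 in YT-iKO with TMM. On the abundant-gene scale it had 11.7, 9.07, 10.3 and 8.58 CPM in CTRL MCAo and 6.66, 7.35, 7.42 and 7.45 CPM in YT-iKO MCAo, which do not overlap, but the difference of −0.46 ± 0.18 was not called (edgeR, adjusted p = 0.778). Rpl24, at no more than 1.04 CPM in any library, had values with SEs of 0.62 to 0.63 that allow no statement.

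The other members were expressed far below the core genes, apart from Rpl7l1 at a mean of 41.1 CPM and the transcribed processed pseudogene Rps4l at 22.0 CPM over the 16 libraries. Rpl7l1 had 37.6 to 41.7 CPM in CTRL sham and 37.8 to 47.0 CPM in CTRL MCAo on the abundant-gene scale, which overlap, and its log2 fold change was 0.09 ± 0.09. Rps4l was at 0.14 ± 0.19. Rps27l, a p53 target, averaged 6.81 CPM and Rpl22l1, a paralog of Rpl22, 5.45 CPM. The other 7 averaged 0.585 to 1.58 CPM, among them the muscle paralog Rpl3l and the testis genes Rpl10l and Rpl39l. The median of the 11 was 0.07 for MCAo in CTRL and 0.06 in YT-iKO, and none of them had an unadjusted p under 0.05 in these comparisons, or was called in any, with edgeR. Limma-voom called Rpl32l lower in CTRL (−1.19, adjusted p = 0.0923) and Rps4l (−0.62, adjusted p = 0.0671) and Rpl7l1 (−0.47, adjusted p = 0.0808) lower in YT-iKO.

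Rpl22l1 had 5.2, 4.74, 5.05 and 4.06 CPM in CTRL MCAo and 6.75, 7.10, 6.62 and 6.08 CPM in YT-iKO MCAo on the abundant-gene scale. These do not overlap, but the value of 0.48 ± 0.25 was not called and the groups overlapped with TMM. Rpl32l, at no more than 1.18 CPM on the abundant-gene scale, was at 1.23 ± 0.58 in the same comparison (edgeR with TMM, unadjusted p = 0.0462, adjusted p = 1).

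Rack1 and Rpl36al are ribosomal proteins that the naming rule misses. Rack1, a scaffold protein of the 40S subunit, was at 0.54 ± 0.28 in CTRL and 0.48 ± 0.28 in YT-iKO after MCAo with TMM. Rpl36al was at 0.39 ± 0.27 and 0.55 ± 0.27. Neither was called with TMM, and Rack1 was called higher in CTRL on the abundant-gene scale (0.60 ± 0.14; edgeR, adjusted p = 0.0446).

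Of the other lists of the translation pathway, elongation moved most like the ribosomal proteins. The 14 elongation genes took 0.268 ± 0.011% of counts in CTRL sham and 0.398 ± 0.045% in CTRL MCAo, and 0.255 ± 0.041% and 0.346 ± 0.048% in YT-iKO sham and MCAo. The groups did not overlap in either genotype. With TMM 12 of the 14 were higher in each genotype (medians 0.29 and 0.42) and none was called, against 6 called higher in CTRL and 2 in YT-iKO on the abundant-gene scale, where 1.35% and 1.23% of all genes were. Eef1a1, which delivers aminoacyl-tRNA, averaged 828 ± 24 CPM in CTRL sham and 1406 ± 535 CPM in CTRL MCAo, at 0.76 ± 0.32. Pabpc1, the poly(A)-binding protein and itself a known TOP mRNA, was at 0.73 ± 0.30 in YT-iKO.

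The lists of ribosome production did not move in the same way. The 40 ribosome biogenesis genes had medians of −0.12 in CTRL (9 higher and 31 lower) and 0.06 in YT-iKO (27 higher and 13 lower), and the 18 genes of RNA polymerase I transcription −0.07 and 0.08. Translation initiation (29 genes) stood at −0.00 and 0.14, mTORC1 and TOP mRNA control (22 genes) at −0.08 and 0.08 and ribosome quality control (12 genes) at −0.16 and −0.01. The 77 mitochondrial ribosomal protein genes stood at −0.06 and 0.03, and no gene of these 6 lists was called with TMM in either genotype. On the abundant-gene scale 3 of the 29 initiation genes and 1 of the 22 genes of the mTORC1 list were called higher in CTRL, against 1.35% of all genes. Myc, a transcription factor that drives ribosome production, was at 1.04 ± 0.42 CPM in CTRL sham and 3.82 ± 0.44 CPM in CTRL MCAo (1.88 ± 0.47; edgeR, adjusted p = 0.163) and at 1.34 ± 0.45 in YT-iKO (edgeR, adjusted p = 0.694). The paper's own DESeq2 list holds Myc as higher in CTRL after MCAo, so this call depends on the tool. Eif3f, a subunit of initiation factor 3, was at −0.69 ± 0.28 after sham and −0.59 ± 0.28 after MCAo in YT-iKO relative to CTRL and was not called.

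Ribosomal protein genes have many processed copies in the genome, which can take or lend reads. Besides the 5 members that are pseudogenes themselves, transcripts of the members matched 391 pseudogenes of the table at 90% identity or more over at least 50% of the transcript, and 238 of these could be tested. Together they took 0.0273% to 0.0614% of counts per library, far less than the members. Limma-voom called 18 of them higher and 7 lower for MCAo in CTRL, against the shares of 11.3% and 13% of all genes given above, and 16 higher and 3 lower in YT-iKO, against 9.2% and 8.89%. EdgeR with TMM and DESeq2 called only 1 copy, after sham and after MCAo between the genotypes, where edgeR called 0.0965% and 0.0708% of all genes. This was Rpl3-ps1, a processed pseudogene of Rpl3 on the X chromosome (chrX:13202571-13203780, GRCm38).

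Its 1210 bases align to the Rpl3 transcript without gaps and with 2 substitutions, C137A and T866C, counted from the 5′ end of that transcript with the Rpl3 base first. The capitals mark these positions, the only ones that differ over the aligned stretch.
Rpl3 around 137: ggcttcctgcctcgCaagcgcagcagccg
Rpl3-ps1 around 137: ggcttcctgcctcgAaagcgcagcagccg
Rpl3 around 866: caccctgcccgtgtTgccttctctgtggc
Rpl3-ps1 around 866: caccctgcccgtgtCgccttctctgtggc
Of the counts on Rpl3 and Rpl3-ps1 together, Rpl3-ps1 had 1.00%, 1.91%, 1.63% and 1.60% in CTRL sham and 1.46%, 1.92%, 1.82% and 1.75% in CTRL MCAo. In YT-iKO it had 7.03%, 5.66%, 6.22% and 7.81% after sham and 6.42%, 7.30%, 6.73% and 5.64% after MCAo. All 8 YT-iKO libraries were above all 8 CTRL libraries, and surgery made no such split. Rpl3-ps1 was higher in YT-iKO by 2.08 ± 0.29 after sham (edgeR, adjusted p = 0.00166) and by 1.87 ± 0.28 after MCAo (edgeR, adjusted p = 0.00437), in every fit with 1 library left out. Rpl3 itself was at −0.13 ± 0.28 and −0.11 ± 0.28 in these comparisons. The Rpl3 gene (chr15:80077791-80091868, minus strand) lies 62813 bases from Pdgfb, whose promoter drives the transgene carried by YT-iKO mice only, and Pdgfb itself was at −0.00 ± 0.26 and 0.10 ± 0.26. Any part of the transgene in the Rpl3-ps1 counts was not tested, and transgene and deletion cannot be told apart in these libraries.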

How the data were processed

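The authors amplified RNA of the sorted cells with a SMART-Seq Ultra Low Input kit, mapped the reads with STAR 2.7.8a to GRCm38 with the GENCODE M12 annotation. The files the authors deposited hold raw counts for each gene, without normalization. The counting program, its use of strand and its treatment of reads with several matches are not given in the sources used here. The authors called differentially expressed genes with DESeq2 at an adjusted p under 0.1. No column was left unused, and no row lacked a gene.

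Here edgeR 4.0.16 (R 4.3.3) was run on the deposited counts with 1 model of the 4 groups, TMM factors, filterByExpr (minimum count 10, minimum total 15) and the quasi-likelihood test, adjusting p by Benjamini and Hochberg across all 31085 genes and calling genes below 0.1. An exact permutation test (two-sided, 70 assignments of 4 and 4 libraries) was used for single genes, on log2(CPM + 1). Log2 fold changes are given with their SE. Alternatives were DESeq2 1.42.0, limma 3.58.1 (voom with sample quality weights), RLE factors, TMM factors from genes averaging 10 CPM or more, no filter, a filter of CPM above 1 in 4 libraries, a threshold of 0.05, only the groups compared, a replicate block and each library left out. Chosen after seeing the data were the median relative to genes of at least 100 CPM, group overlap and permutation tests on the abundant-gene scale, the length of all exons, the split by Xist and the fits without 2 libraries.

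The members and gene lists were chosen with earlier results of these data known. Named were members called in any comparison, the 3 extremes in each direction of each comparison and of the levels, stalk and 5S rRNA proteins, Rpl3, Rpsa, Rps6, Rps19, Rps27a, Fau, the 11 other members, and from the other lists called genes or that with the smallest p. Other genes in the text are those whose groups do not overlap or that an alternative called, chosen after their values were seen. A few genes that these rules name are not reported here or drawn in the figures, but they are part of all counts and medians.

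Positions and lengths came from GENCODE M21 on GRCm38, which holds 36861 of the 37003 genes. Pseudogene copies were found with BLAST 2.17.0. Lengths affect levels per kilobase only. No pair of replicates agreed within sampling noise (chi-square per gene at least 5.54).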

Additional observations from a re-analysis of the deposited data

Results flagged for a closer look

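Values of 64 groups of 4 libraries were checked for a library far from the other 3, of which chance alone marks about 1 in 20 groups. A library was marked where its gap to the nearest of the others, over the range of the group, passed the 95% critical value of Dixon. This held for 2 groups. The ratio of 60S to 40S counts in CTRL MCAo replicate 3 was 1.48, below 1.53 in the other CTRL MCAo libraries. Rps7 had 86.3 CPM (TMM) in CTRL sham replicate 1 against 104 to 106 CPM in the other CTRL sham libraries. Rps7 remained without overlap between CTRL sham and CTRL MCAo with that library.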

How the results depend on the processing

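The replicate numbers were not read as pairs: libraries of the same number had a median correlation of deviations of 0.259 over 24 pairs, 17 of them and so not all above 0.1, against −0.128 over 72 pairs of different numbers, 27 of them above 0.1. With a replicate block 0 members were called in each comparison. The share of all genes called in these fits is not given, so the count is no result about the members. The core medians with the block were −0.18 (genotype after sham), −0.25 (genotype after MCAo), 0.41 (MCAo in CTRL), 0.33 (MCAo in YT-iKO) and −0.08 (difference). Members called for MCAo in CTRL, 0 with edgeR and TMM, were 40 higher with factors from genes of at least 10 CPM (1.35% of all genes), 7 with limma-voom, 5 higher (11.3%) and 2 lower (13%), 26 higher with only the groups compared (1.57%) and 6 higher without the 2 libraries rich in receptor counts (0.838%). For MCAo in YT-iKO they were 7, 6 higher (1.23%) and 1 lower (0.489%), then 6 lower (8.89%), 0 (0.0624%) and 1 higher (1.32%), and for genotype after MCAo 5 lower with limma-voom (0.643%). The cause was not tested. With limma-voom the median for MCAo in YT-iKO was −0.18, and the sign turned for Rps27a in CTRL (−0.00463) and in YT-iKO for Rplp2 (−0.20), Rpl5 (−0.28), Rpl11 (−0.15), Rpsa (−0.28) and Rps19 (−0.20). Per kilobase of all exons the core median level was 41.2 CPM. On the abundant-gene scale the permutation test reached its smallest p, 0.0286, for Rpl10 in YT-iKO (0.70) and Rplp0 in CTRL (0.89). With 1 library left out, 0 members were called in every comparison, again without a share of all genes to set beside the count. The medians in these fits ranged from −0.22 to −0.05 (genotype after sham), −0.50 to −0.09 (after MCAo), 0.33 to 0.59 (MCAo in CTRL), 0.11 to 0.53 (in YT-iKO) and −0.37 to 0.04 (difference). Relative to genes of at least 100 CPM they ranged from −0.04 to 0.19, −0.32 to −0.18, 0.53 to 0.64, 0.16 to 0.40 and −0.41 to −0.17. The differences in share ranged from −0.0147 to 0.0902, −0.160 to −0.0626, 0.244 to 0.300 and 0.0786 to 0.184 percentage points. Depth limits Rpl24 and the other members under 2 CPM. The model of only 2 groups gives no interaction, so it was not run for the difference.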
